A study of Homo sapiens with 15 samples.

Results

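F-box proteins were followed in the human leukaemia line K562 after exposure to valproic acid. Genes were taken by name: 58 of the 18334 genes measured had a symbol made of FBXL, FBXO or FBXW and a digit, antisense transcripts left out. There were 17 FBXL, 32 FBXO and 9 FBXW genes, read by 85 probes, and 22 of the genes had more than 1 probe. The family was chosen by the strong early rise of FBXL16 in these arrays, so the values of FBXL16 are given as a description and without a test. Tests and counts concern the other 57 genes, of which 3 are pseudogenes (FBXL9P, FBXL21P and FBXW4P1). The ratio of FBXW4P1 is uncertain beside that of FBXW4, since probes can bind the RNA of near-identical copies.

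K562 is an erythroleukaemia line from chronic myeloid leukaemia that can be driven toward red cell or megakaryocyte features; the labels name the line DNSZ K562. Treated cells received valproic acid at 1 mM, a branched short-chain fatty acid used against epilepsy that also blocks histone deacetylases, and the controls received none. RNA was collected at 2, 6, 10, 48 and 72 h, and each 2-colour array compared treated with untreated cells of the same time. The 3 arrays at each time, 15 in all, came from separate thawings; Cy5 labelled the treated RNA of replicates 1 and 2, and Cy3 that of replicate 3.

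Every value is a log2 ratio of treated over untreated RNA, so that 1 is a 2-fold difference and 0 is none. No source used here states the base, and base 2 was assumed. A ratio carries no expression level, so the presence of K562 markers could not be checked and levels of different genes cannot be compared. RNA came from bulk cultures, in which fewer cells of a kind and less RNA per cell cannot be told apart. Array medians lay between −0.00522 and 0.0169. The median SD of an F-box gene over the 3 arrays of a time was 0.137. In the all-gene fit the median SE of a ratio was 0.0602. Signal above background was not used here, so its part in the precision of a ratio was not tested. Values after ± are SEs of limma fits unless SD is named, and a gene is said to have passed, risen or fallen at a Benjamini-Hochberg adjusted p under 0.05 over all 18334 genes.

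An F-box protein is the interchangeable substrate receptor of an SCF ubiquitin ligase. Its F-box motif binds SKP1, which hangs on the scaffold CUL1 together with the RING protein RBX1, and the rest of the F-box protein picks the target to be ubiquitinated. FBXW proteins bind targets through WD40 repeats, FBXL proteins carry leucine-rich repeats, and FBXO proteins have other domains. In blood cells such receptors are known for the turnover of cyclins, MYC, NOTCH and BCL6. Some F-box proteins act outside SCF ligases, and FBXL16 has been reported to bind a regulatory subunit of the phosphatase PP2A and not to join CUL1.

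FBXL16 was higher on 15 of 15 arrays. On the 2 h arrays the ratios of replicates 1 to 3 were 1.47, 1.30 and 1.01, and at 6 h they were 3.31, 3.20 and 2.48. At 10 h they were 3.70, 2.72 and 3.01, at 48 h 3.46, 3.48 and 2.79, and at 72 h 3.30, 2.50 and 2.05. The mean climbed from 1.26 ± 0.23 (SD, n = 3), a 2.39-fold difference, at 2 h to 3.00 ± 0.45, or 7.98-fold, at 6 h, and all 3 arrays at 6 h lay above all 3 at 2 h. It was 3.14 ± 0.50 at 10 h and 3.24 ± 0.39 (9.46-fold) at 48 h, and 2.62 ± 0.64 (6.13-fold) at 72 h, where its arrays overlapped those of 6, 10 and 48 h. Among all 18334 genes FBXL16 ranked 2 from the top at 2 h, 1 at 6 h and 10 h, 12 at 48 h and 25 at 72 h. It was read by 1 probe. The arrays with exchanged dyes gave the lowest value of their time at 2, 6, 48 and 72 h, and the fitted dye term, the distance of each dye orientation from their common mean, was 0.29. Replicate 3 differs from the others in both dye and thawing, which cannot be told apart.

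No other F-box gene came near this response. The next highest mean was that of FBXO33 at 2 h (0.65), FBXO16 at 6 h (0.86) and FBXO2 at 10, 48 and 72 h (1.08, 1.57 and 1.62). Over the 15 arrays the genes whose ratios lay nearest to those of FBXL16 were CSRP2, a LIM domain protein (root mean square difference 0.52), SLC30A3, a zinc transporter (0.54), REEP2 (0.67), ARHGEF40 (0.68), MARCKS (0.73) and AIF1L (0.83). FBXO2, the nearest F-box gene, ranked 186 at 1.76. Likeness was taken over the same 15 arrays, which share thawings and dyes.

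**Figure D1:**
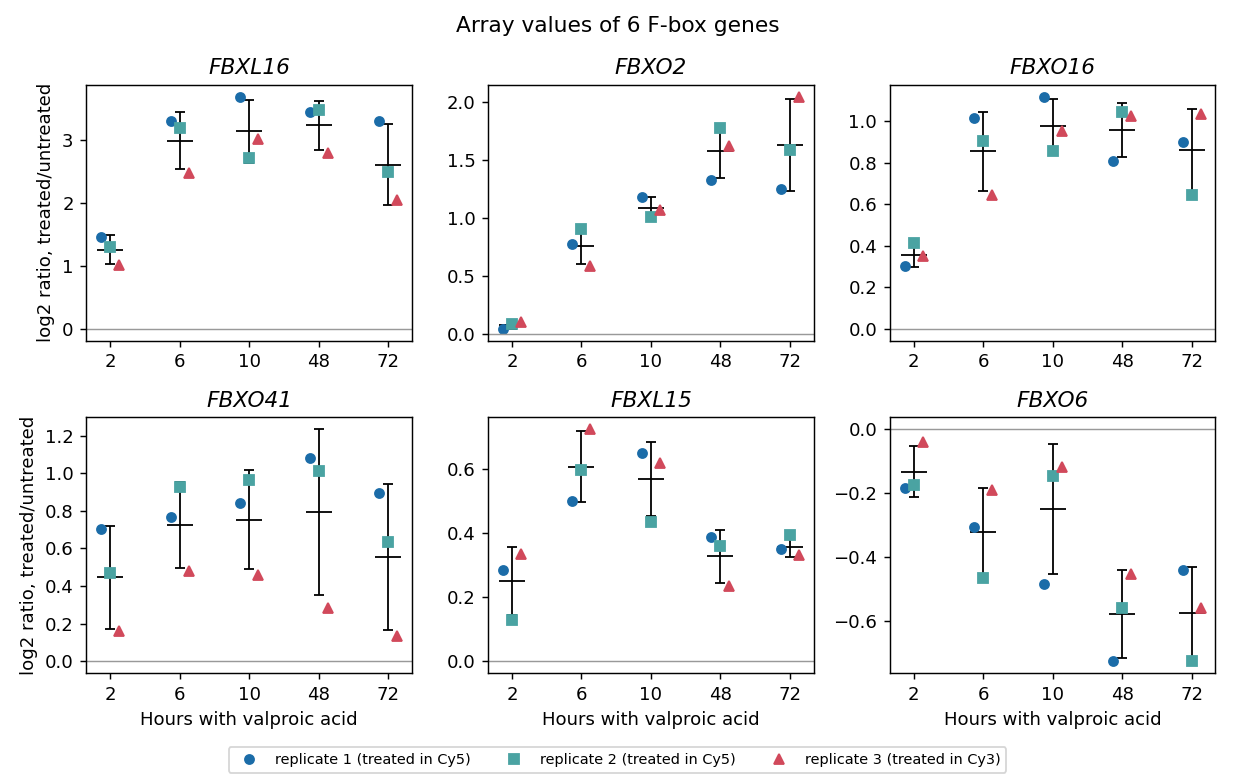
Log2 ratio of treated over untreated RNA (vertical axes, scaled for each gene) at 2, 6, 10, 48 and 72 h for FBXL16, FBXO2, FBXO16, FBXO41, FBXL15 and FBXO6; each symbol is 1 array, horizontal bars are means and vertical bars SDs of 3 arrays. FBXL16 lies between 2.48 and 3.31 at 6 h, FBXO2 climbs from at most 0.10 at 2 h to at least 1.25 at 72 h, replicate 3 of FBXO41 is the lowest array at every time, and FBXO6 lies below 0 on all 15 arrays.

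Of the 57 other genes, 39 passed at 1 or more times, against 55.4% of all genes, and 18 passed at none. At 2 h 9 rose and 1 fell, which is 17.5% of the 57 against 6.35% of all genes. The numbers were 14 and 5 at 6 h (33.3% against 28.7%), 11 and 7 at 10 h (31.6% against 29.7%), 14 and 8 at 48 h (38.6% against 37.9%) and 15 and 9 at 72 h (42.1% against 35.8%). From 6 h to 48 h the share of F-box genes that passed was thus near that of all genes. At 2 h 2 related lists had the same share as the F-box genes: 17.8% of 73 substrate receptors of other cullins (9 higher and 4 lower) and 17.1% of 41 genes of reported F-box substrates (6 higher and 1 lower). By direction, all genes rose in 4.82%, 19.0%, 18.1%, 23.3% and 22.1% of cases and fell in 1.53%, 9.66%, 11.6%, 14.6% and 13.6% at the 5 times in order. The median ratio of the 57 genes was 0.04, 0.07, 0.03, 0.02 and 0.02, beside 0.00, 0.01, 0.01, 0.01 and 0.01 for all genes. Of the 39 genes, 24 passed as higher, 15 as lower and 0 in both directions; 1.82% of all genes passed in both, a share at which few of 57 genes would do so.

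The count at 2 h depended on each of its arrays. By limma it was 3 genes without 2 h replicate 1, but 4 when 2 h replicate 2 and 0 when 2 h replicate 3 was the array left out. With all arrays 14 genes were higher and 2 lower at an unadjusted p under 0.05 by limma. All genes were not counted at that limit, so no excess can be read from these numbers. Over all genes the share at 2 h dropped as well, to 2.87%, 3.76% and 2.17% without those arrays in turn. Without 2 h replicate 3 the 2 h counts were 3 higher and 0 lower for the receptors of other cullins, and 2 genes of reported substrates were higher. Without 2 h replicate 1, 0 of those receptors were lower and 3 of those substrate genes higher. At 10 h 8 genes passed without 10 h replicate 1 and 9 without 10 h replicate 3, and at 72 h 13 passed without 72 h replicate 3. The shares of all genes were then 21.1%, 18.5% and 23%. Most ratios were small: FBXO2 alone of the 57 was called at least 2-fold higher, at 10, 48 and 72 h, where 1.28%, 2.71% and 2.25% of all genes were. At 2 and 6 h, where 0.104% and 0.873% of all genes were 2-fold higher, 0 of the 57 were. A 2-fold fall was called for 0 of the 57, and for 0.00545%, 0.0491%, 0.0382%, 0.131% and 0.0927% of all genes at the 5 times. By subfamily, 1, 2, 1, 3 and 6 of the 16 tested FBXL genes passed at the 5 times (6.25%, 12.5%, 6.25%, 18.8% and 37.5%). Of the 32 FBXO genes 8, 15, 16, 14 and 15 passed (25%, 46.9%, 50%, 43.8% and 46.9%). Of the 9 FBXW genes 1, 2, 1, 5 and 3 passed (11.1%, 22.2%, 11.1%, 55.6% and 33.3%). All genes stood at 6.35%, 28.7%, 29.7%, 37.9% and 35.8%. From 6 to 48 h the FBXO share with all arrays thus lay above that of all genes and the FBXL share below it. At 10 h the FBXO count of 16 rested on single arrays, since 8 and 9 of all 57 genes passed without 10 h replicate 1 and 3. Subfamily shares with single arrays left out are not given here. The difference between subfamilies was not tested.

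**Figure D2:**
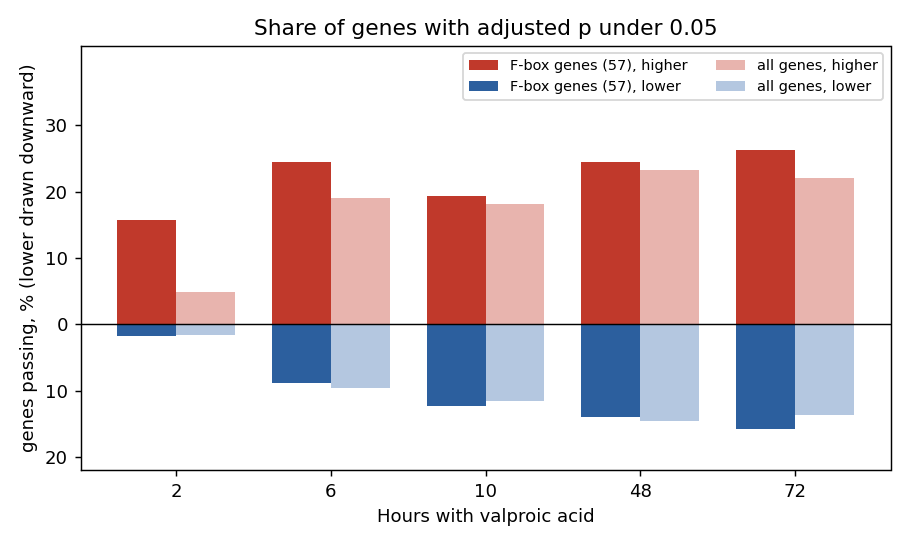
Share of genes (vertical axis, percent; genes that fell are drawn downward) with adjusted p under 0.05 at each time for the 57 F-box genes other than FBXL16 (dark bars) and all 18334 genes (pale bars). At 2 h 9 of 57 F-box genes were higher against 4.82% of all genes, a count that was 0 without 2 h replicate 3; at the later times the paired bars lie close together.

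**Figure D3:**
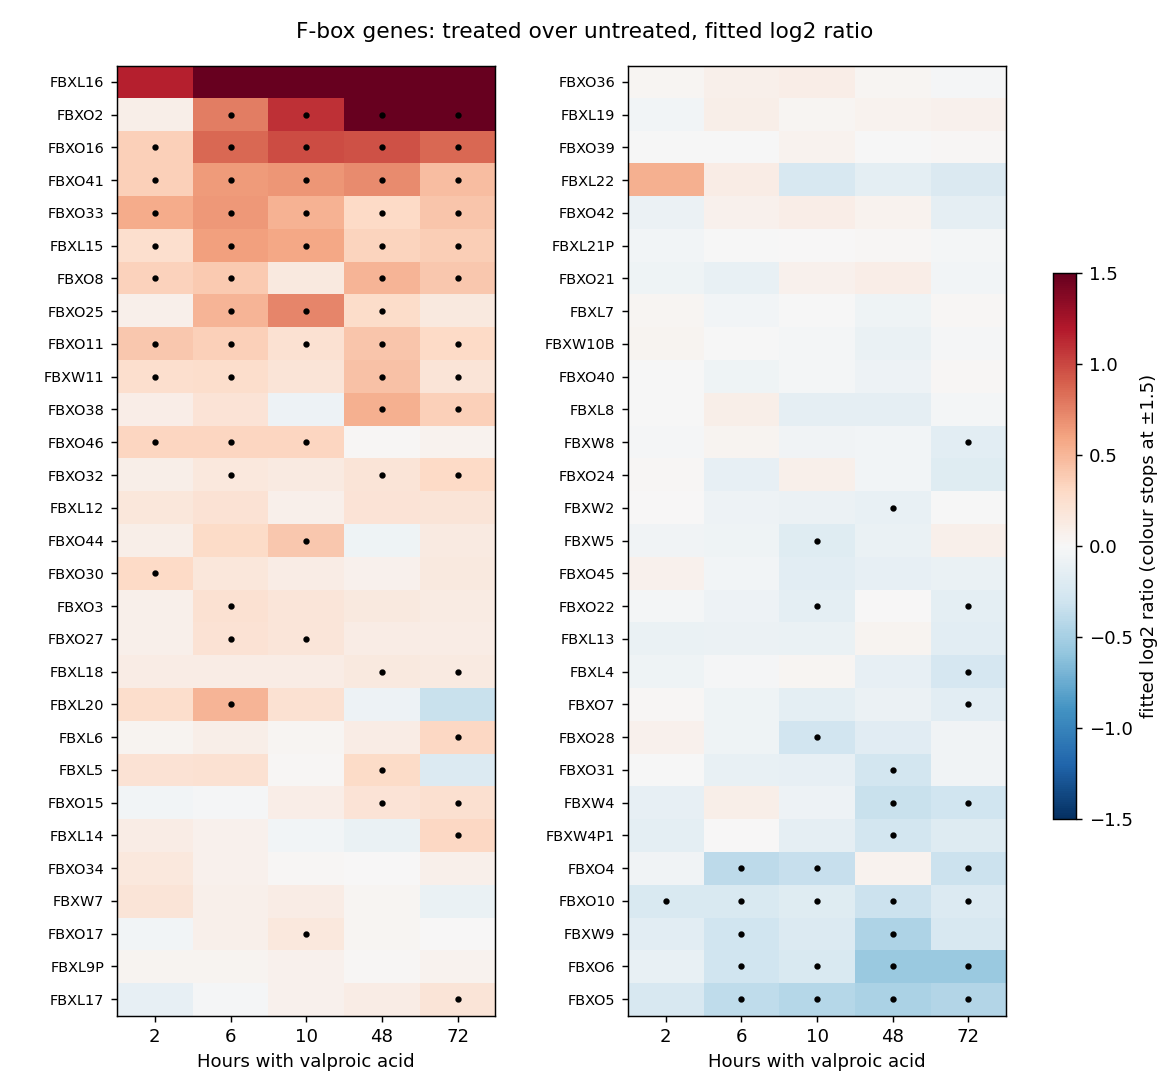
Fitted log2 ratio of all 58 F-box genes (rows, ordered by mean ratio) at the 5 times; red is higher and blue lower in treated cells, colour stops at 1.5, and a dot marks an adjusted p under 0.05. FBXL16 has no dots because it was not tested; 39 of the other genes carry at least 1 dot.

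Some genes passed at every time: 5 of the 57 were higher at all 5 times, against 2.57% of all genes, and 1 was lower, against 0.616%. The 5 were FBXO16, FBXO41 (an F-box gene known from the brain), FBXO33 (reported to target the RNA- and DNA-binding protein YBX1), FBXO11 (the receptor that degrades the transcriptional repressor BCL6) and FBXL15 (reported to target the ubiquitin ligase SMURF1), the last named after its values were seen. All 6 calls at 2 h ended without 2 h replicate 3, where limma's adjusted p lay between 0.108 and 0.300. The calls of FBXO16 at 2 h ended also without 2 h replicate 1 or 2 (adjusted p = 0.0904 and 0.137).

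FBXO16 had ratios of 0.30, 0.41 and 0.35 in replicates 1 to 3 at 2 h. By 6 h these were 1.02, 0.90 and 0.65, followed at 10 h by 1.12, 0.86 and 0.95. At 48 h it had 0.81, 1.04 and 1.03, and at 72 h 0.90, 0.64 and 1.03. All arrays from 6 h on lay above all those at 2 h, and those of 6 to 72 h overlapped. The fitted ratio was 0.36 ± 0.08 at 2 h (adjusted p = 0.0235, limma) and 0.86 ± 0.08 at 6 h (adjusted p = 1.44e-05). It was 0.98 at 10 h, 0.96 at 48 h and 0.86 at 72 h, rises of up to 1.97-fold. Its 2 h call ended also without 2 h replicate 1 (adjusted p = 0.0904) or 2 (0.137).

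FBXO41 had ratios of 0.71, 0.47 and 0.16 at 2 h. The 6 h arrays read 0.77, 0.93 and 0.48, and those of 10 h 0.84, 0.96 and 0.46. At 48 h it had 1.08, 1.01 and 0.28, and at 72 h 0.89, 0.64 and 0.13. Replicate 3, with exchanged dyes, was the lowest array at every time, and the dye term of 0.26 passed. The fitted ratio was 0.36 at 2 h, 0.64 at 6 h, 0.67 at 10 h, 0.71 ± 0.07 at 48 h (adjusted p = 6.66e-06, limma) and 0.47 at 72 h; without 2 h replicate 1 the 2 h call also ended (adjusted p = 0.0930). FBXL15 ran from 0.13 to 0.33 at 2 h, 0.50 to 0.73 at 6 h, 0.44 to 0.65 at 10 h, 0.23 to 0.39 at 48 h and 0.33 to 0.40 at 72 h. Its 6 h arrays lay above all those of 2, 48 and 72 h, with a fitted ratio of 0.62 ± 0.06 (adjusted p = 9.36e-06, limma). Its 2 h call ended also without 2 h replicate 1 (adjusted p = 0.128).

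FBXO33 and FBXO11 were less even over the arrays. Their dye terms of 0.26 and 0.19 passed, as did that of FBXO41. Without a dye term in the model FBXO33 lost its calls at 2, 48 and 72 h (adjusted p = 0.0641, 0.135 and 0.0524, limma). FBXO11 then lost those at 2, 10 and 72 h (0.0671, 0.134 and 0.0506), and FBXO41 the call at 2 h (0.205). FBXO33 had 0.68, 0.77 and 0.50 at 2 h and 0.89, 0.82 and 0.51 at 6 h, but 0.54, 0.81 and −0.20 at 48 h and 0.75, 0.83 and −0.08 at 72 h. Replicate 3 was thus below 0 at both late times. Its 2 probes differed there by 0.66 and 0.86, and one of them averaged 0.05 at 48 h and the other 0.71. The fitted ratio was 0.56 ± 0.10 at 2 h (adjusted p = 0.00584, limma) and 0.30 ± 0.10 at 48 h (adjusted p = 0.0405). The call at 10 h ended without 10 h replicate 3 (adjusted p = 0.0567), the call at 72 h without 72 h replicate 2 (0.0530), and that at 48 h without 48 h replicate 1 or 2 (0.109 and 0.310) and without any of 4 earlier arrays (2 h replicate 2 and all 3 at 6 h; at most 0.0533). It ended, too, with the thawing as a replicate block (adjusted p = 0.0514). FBXO11 ranged from 0.25 to 0.60 at 2 h, 0.09 to 0.69 at 6 h, 0.05 to 0.55 at 10 h, 0.13 to 0.66 at 48 h and 0.25 to 0.59 at 72 h, with replicate 3 the lowest each time. Its fitted ratios were 0.40, 0.36, 0.23, 0.41 and 0.30. Its call at 10 h ended without 10 h replicate 1 (adjusted p = 0.236) or 3 (0.169), and that at 72 h without 72 h replicate 3 (0.140).

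FBXO10, reported to degrade the survival protein BCL2, was the 1 gene lower at all 5 times. It was below 0 on 15 of 15 arrays, from −0.27 to −0.20 at 2 h, −0.26 to −0.17 at 6 h, −0.23 to −0.07 at 10 h, −0.49 to −0.24 at 48 h and −0.28 to −0.13 at 72 h. The arrays of different times overlapped. It fell by 0.23 ± 0.05 at 2 h (adjusted p = 0.0241, limma) and by 0.32 ± 0.05 at 48 h (adjusted p = 0.000478). Its 2 h call ended also without 2 h replicate 1 or 2 (adjusted p = 0.0925 and 0.0982), the 6 h call without 6 h replicate 3 (0.0825), the 10 h call without 10 h replicate 1 or 3 (0.143 and 0.248), and the 72 h call without 72 h replicate 2 (0.0605).

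Promoters were read for these genes because they moved in 1 direction at every time. In RefSeq (GRCh38.p14), 43 of the 58 genes had a promoter entry, and the 250 bases before the transcription start were searched on both strands for the GC box GGGCGG, the binding motif of SP1-like factors, which neither contains nor lies within any other motif searched. It was found in 28 of the 43 windows (65.1%) and in 42.3% of 27305 promoters of the same length. The windows of the 43 genes held a median of 24 CpG dinucleotides, against 11 for all promoters, and their median GC content was 67.6% against 58.0%. CCAAT was in 23.3% of the 43 and 33.0% of all windows, the E-box CACGTG in 6.98% and 6.49%, the cAMP response element TGACGTCA in 4.65% and 1.77%, and TATAAA in 4.65% and 11.1%. A match describes letters and is not evidence that a factor binds there.

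The windows of 2 genes that rose at all 5 times, of FBXO10, and of FBXO6, the gene with the lowest ratio at 48 and 72 h, are printed from 5′ to 3′ on the strand of the gene, with GC boxes (GGGCGG, or CCGCCC on the other strand) in capitals.
FBXO11 chr2:47906499-47906748 (minus strand): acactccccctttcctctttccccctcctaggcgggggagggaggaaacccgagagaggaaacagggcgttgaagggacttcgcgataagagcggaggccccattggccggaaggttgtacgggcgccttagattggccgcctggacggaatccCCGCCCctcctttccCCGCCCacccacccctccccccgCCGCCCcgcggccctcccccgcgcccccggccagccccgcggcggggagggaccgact
FBXO41 chr2:73284479-73284728 (minus strand): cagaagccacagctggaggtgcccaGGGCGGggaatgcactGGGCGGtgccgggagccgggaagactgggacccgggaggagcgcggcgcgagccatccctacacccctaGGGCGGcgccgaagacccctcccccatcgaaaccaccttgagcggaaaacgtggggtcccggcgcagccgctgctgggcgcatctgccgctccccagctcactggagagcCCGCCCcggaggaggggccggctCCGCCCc
FBXO10 chr9:37576381-37576630 (minus strand): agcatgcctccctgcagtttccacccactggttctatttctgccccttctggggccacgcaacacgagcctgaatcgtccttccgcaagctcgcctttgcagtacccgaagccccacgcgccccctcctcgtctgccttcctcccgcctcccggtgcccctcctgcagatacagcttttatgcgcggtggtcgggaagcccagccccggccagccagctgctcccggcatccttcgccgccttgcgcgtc
FBXO6 chr1:11663950-11664199 (plus strand): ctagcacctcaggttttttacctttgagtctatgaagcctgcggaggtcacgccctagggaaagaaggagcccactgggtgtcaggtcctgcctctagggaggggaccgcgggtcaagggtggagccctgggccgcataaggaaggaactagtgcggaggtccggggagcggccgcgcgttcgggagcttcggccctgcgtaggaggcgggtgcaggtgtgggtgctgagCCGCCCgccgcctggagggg
FBXO41 held 5 GC boxes and FBXO11 3, and both had 24 CpG dinucleotides. FBXO10 held 0 GC boxes and 20 CpG, and FBXO6 1 GC box and 18 CpG. Other genes that passed went the other way. FBXO8, FBXO46, FBXO27 and FBXL20, which rose, held 0 GC boxes, and FBXL4, FBXO31 and FBXW5, which fell, held 5, 3 and 3. The remaining genes that rose at all 5 times, FBXO16, FBXO33 and FBXL15, had no promoter entry. A link between GC boxes and direction was not tested.

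Glycoprotein-binding receptors gave both the strongest rise and the deepest fall among the 57 genes. FBXO2, FBXO6, FBXO17, FBXO27 and FBXO44 share a sugar-binding domain through which members such as FBXO2 recognise glycoproteins retrieved from the endoplasmic reticulum. FBXO2 had ratios of 0.04, 0.08 and 0.10 at 2 h. The 6 h arrays read 0.78, 0.90 and 0.59, and those of 10 h 1.18, 1.01 and 1.07. It went on to 1.32, 1.77 and 1.62 at 48 h and 1.25, 1.58 and 2.04 at 72 h. Arrays at 2, 6 and 10 h did not overlap, and every array at 48 and 72 h lay above every earlier one. The fitted ratio was 0.77 ± 0.12 at 6 h (adjusted p = 0.000316, limma), 1.10 at 10 h, 1.58 at 48 h and 1.64 ± 0.12 at 72 h (adjusted p = 3.27e-07), a 3.12-fold rise. At 2 h it was 0.09 (adjusted p = 0.850).

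FBXO6 moved the other way and was below 0 on 15 of 15 arrays. Its ratios were −0.19, −0.17 and −0.04 at 2 h, then −0.31, −0.47 and −0.19 (6 h), followed by −0.49, −0.15 and −0.12 (10 h). They were −0.73, −0.56 and −0.45 at 48 h and −0.44, −0.73 and −0.56 at 72 h. The late arrays overlapped the 6 h and 10 h arrays through 1 array each. FBXO6 fell by 0.56 ± 0.07 at 48 h (adjusted p = 3.58e-05, limma) and by 0.55 ± 0.07 at 72 h (adjusted p = 4.04e-05), 1.47-fold each. Its smaller fall at 6 h, by 0.30, did not pass without 6 h replicate 2 (adjusted p = 0.0559). FBXO2, FBXO6 and FBXO44 are neighbours on chromosome 1 in the reference gene table.

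The other 3 genes that share the sugar-binding domain passed at early times and at neither late time. The late minus early test passed for 2 of the 5, FBXO2 and FBXO6 (40% against 25.9% of all genes). A change with time was thus not called for the other 3 genes. Whether each of their proteins binds sugars was not tested. The list was drawn up with earlier results of these data known. At 2 h 0 of the 5 passed, at 6 h 3, and at 48 and 72 h 2 each. All genes passed in 6.35%, 28.7%, 37.9% and 35.8% of cases at these times. At 10 h 5 of the 5 passed, 4 of them higher, where 29.7% of all genes passed and 18.1% were higher. FBXO44 rose by 0.40 ± 0.13 there (array values 0.57, 0.26 and 0.47; adjusted p = 0.0302, limma), FBXO27 by 0.18 ± 0.04 and FBXO17 by 0.16 ± 0.06, and FBXO6 fell by 0.23. Without 10 h replicate 1 or without 10 h replicate 3, FBXO2 alone of the 5 passed, and FBXO17 also did not pass without 8 other single arrays or with the thawing as a replicate block (adjusted p = 0.0566). FBXO27 had also risen at 6 h, by 0.22 ± 0.04 (adjusted p = 0.00197). At 48 and 72 h FBXO17, FBXO27 and FBXO44 did not pass, with fitted ratios between −0.06 and 0.14. FBXO44 had array values of 0.26, 0.26 and −0.63 at 48 h, so 1 array set its low mean. The median of the 5 genes was 0.18 at 10 h and 0.11 at 72 h, beside 0.01 for all genes at both times.

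Among 9 measured genes with roles in the cell cycle, 1 rose at 2 h, 1 rose and 2 fell at 6, 48 and 72 h each, and 3 fell at 10 h. The share of 33.3% at 6, 10, 48 and 72 h lay near the 28.7%, 29.7%, 37.9% and 35.8% of all genes. FBXO5 (EMI1), an inhibitor of the anaphase-promoting complex, fell at 6, 10, 48 and 72 h, with −0.44, −0.24 and −0.60 on the 48 h arrays and −0.45, 0.07 and −0.81 on the 72 h arrays. Replicate 3 was its lowest array at each of these times, and its dye term of 0.14 passed. Without a dye term in the model its 6 h call ended (adjusted p = 0.0769, limma). The fitted fall was 0.47 ± 0.10 at 48 h (adjusted p = 0.00155, limma) and 0.45 at 72 h; the 6 h call was lost when either 6 h replicate 1 or 3 was left out (adjusted p = 0.0771 and 0.0543), and the 72 h call without 72 h replicate 3 (0.0824). FBXO4, a receptor for cyclin D1, had −0.38, −0.29 and −0.43 at 6 h, where it fell by 0.39 ± 0.08 (adjusted p = 0.00364). It was at 0.10, 0.18 and −0.06 at 48 h, which did not pass, and again fell at 10 and 72 h, calls that ended without 10 h replicate 1 or 3 (0.0801 and 0.0758) and without 72 h replicate 2 or 3 (0.0777 and 0.0665).

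FBXO31, another receptor reported for cyclin D1, fell by 0.28 ± 0.06 at 48 h and passed at no other time (adjusted p = 0.00369, limma), and FBXO28 fell by 0.28 at 10 h, a call that ended without 10 h replicate 2 or 3 (adjusted p = 0.120 and 0.322). The dye term of FBXO28, 0.17, passed, and without a dye term in the model its 10 h call ended (adjusted p = 0.266). FBXW11, the beta-TrCP2 receptor of phosphorylated beta-catenin and IκB, was higher. Its 48 h arrays read 0.42, 0.43 and 0.41, which lay above all its arrays at the other times. It rose by 0.44 ± 0.07 (adjusted p = 0.000193), although 1 of its 2 probes averaged 0.73 there and the other 0.11. It also rose at 2, 6 and 72 h, by 0.25, 0.27 and 0.20. The 2 h call ended without any 2 h array (adjusted p from 0.141 to 0.300) and without 5 later arrays, the 6 h call without 6 h replicate 2 (0.0855), and the 72 h call without 72 h replicate 1 (0.236) or 3 (0.371). FBXW7, the tumour suppressor that degrades cyclin E, MYC and NOTCH, passed at no single time, with ratios from −0.10 to 0.19. FBXL7, FBXL8 and FBXL12 passed at none. The median of the 9 genes was −0.07 at 48 h and −0.05 at 72 h.

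Of 3 genes tied to iron, red cells or mitochondria, 1 rose at 48 h (37.9% of all genes passed) and 2 fell at 72 h (35.8%), where their median was −0.21 beside 0.01 for all genes. FBXL5, the iron sensor that degrades IRP2, rose by 0.29 ± 0.09 at 48 h (array values 0.22, 0.03 and 0.58; adjusted p = 0.0279, limma), a call that ended without 48 h replicate 1 or 3 (adjusted p = 0.0745 and 0.478). FBXL4, which guards mitochondria against excess mitophagy, fell by 0.26 ± 0.06 at 72 h (adjusted p = 0.00396). FBXO7, in which mutations cause a parkinsonian disease, fell by 0.16 at 72 h (adjusted p = 0.0495), and did not pass when any 1 of 13 arrays was left out or with the thawing as a replicate block (0.0530). Its dye term of 0.13 passed, and without a dye term in the model its 72 h call ended (adjusted p = 0.408). Of 4 genes known from muscle wasting, FBXO32 (atrogin-1) rose by 0.30 ± 0.05 at 72 h (array values between 0.16 and 0.42; adjusted p = 0.000548). It also rose by 0.20 at 48 h, a call lost without 48 h replicate 3 (adjusted p = 0.101), and by 0.15 at 6 h, lost when any 1 of 9 arrays was left out. Its 3 probes averaged 0.05, 0.12 and 0.41 at 48 h and 0.06, 0.34 and 0.49 at 72 h. With probe medians the calls of FBXO32 at 48 and 6 h ended (adjusted p = 0.141 and 0.220), and that at 72 h stayed. FBXO30 rose by 0.30 at 2 h and did not pass without any of the 2 h arrays (0.0964 to 0.206) or 4 other single arrays, and FBXO21 and FBXO40 passed at no time.

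Other F-box genes with larger changes were FBXO25, FBXO8 and FBXW9. FBXO25 read 0.06, −0.02 and 0.09 at 2 h, then 0.60, 0.31 and 0.51 at 6 h and 0.67, 0.54 and 0.89 at 10 h, without overlap between 2 h and either later time. It rose by 0.51 ± 0.07 at 6 h (adjusted p = 0.000129, limma) and by 0.73 ± 0.07 at 10 h (adjusted p = 6.51e-06). By 48 h its rise was 0.28, lost without 48 h replicate 3 (adjusted p = 0.117), and at 72 h it did not pass (0.15). FBXO8, which carries a Sec7 domain and acts on the small GTPase ARF6, had 0.43, 0.52 and 0.50 at 48 h and rose by 0.51 ± 0.08 (adjusted p = 0.000303). Its 72 h rise of 0.40 was lost without 72 h replicate 3 (adjusted p = 0.0598). FBXW9 had −0.67, −0.33 and −0.41 at 48 h and fell by 0.46 ± 0.09 (adjusted p = 0.00160). The 18 genes that passed at no time had fitted ratios between −0.24 and 0.53. The upper end was FBXL22 at 2 h, with array values of 0.11, 1.71 and 0.00, and it was named after its values were seen. The other 17 lay between −0.18 and 0.21.

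Whether the response changed with time was asked by setting the mean of 48 and 72 h against the mean of 2, 6 and 10 h. FBXO2 rose further with time, FBXO38 and FBXO15 turned from near 0 to higher, FBXO6 and FBXW4 fell further, and FBXO46, FBXL20 and FBXO25 had lower ratios late than early. In all, 11 of the 57 genes passed, 4 higher and 7 lower late, which is 19.3% against 25.9% of all genes (14.9% higher and 11.0% lower). A moderated F test of each later time against 2 h passed for 10 of the 57 (17.5%, against 23.3% of all genes).

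FBXO2 averaged 0.64 over the 9 early arrays and 1.60 over the 6 late arrays, a difference of 0.96 ± 0.10 (adjusted p = 2.86e-05, limma). FBXO15, a marker gene of pluripotent stem cells in mouse, lay between −0.11 and 0.19 on the early arrays and between 0.16 and 0.33 on the late ones. Its difference was 0.21 ± 0.04 (adjusted p = 0.00117). FBXO38, reported to target the receptor PD-1 in T cells, had late values from 0.28 to 0.95 and early values from −0.24 to 0.43, with a difference of 0.37 ± 0.09 (adjusted p = 0.0115). Early and late arrays of FBXO15 and FBXO38 overlapped, and those of FBXO2 did not.

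Among the genes lower late, FBXO46 read 0.08 to 0.42 on the 9 early arrays and −0.26 to 0.19 on the 6 late ones. Its difference was −0.29 ± 0.07 (adjusted p = 0.00553, limma), after rises of 0.32, 0.33 and 0.32 at 2, 6 and 10 h. Its 2 h call ended without any 2 h array (adjusted p from 0.0789 to 0.197), and its 10 h call without 10 h replicate 1 (0.0512). FBXL20, known in mouse as the synaptic protein SCRAPPER, went from a mean of 0.43 to −0.11, a difference of −0.54 ± 0.12 (adjusted p = 0.00602). Replicate 3 of FBXL20 was the lowest array at 2, 6, 10 and 48 h, and its dye term of 0.29 passed. Its rise of 0.51 at 6 h was lost without 6 h replicate 2 or 3 (adjusted p = 0.0810 and 0.0861). Without a dye term in the model the 6 h call and the late minus early call of FBXL20 ended (adjusted p = 0.0566 and 0.0770, limma).

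FBXW4 (dactylin), known from limb development, read −0.48, −0.29 and −0.33 at 48 h and −0.27, −0.40 and −0.30 at 72 h, and its early arrays spread from −0.34 to 0.37. The difference was −0.28 ± 0.07 (adjusted p = 0.00781, limma). Its single-time falls, of 0.33 at 48 h and 0.29 at 72 h, were lost without 48 h replicate 3 (adjusted p = 0.0579) and 72 h replicate 3 (0.125). FBXO6 had a difference of −0.34 ± 0.06 (adjusted p = 0.00133) and FBXO25 one of −0.23 ± 0.06 (adjusted p = 0.0157). Smaller differences passed for FBXL17 (0.17), FBXL4 (−0.17) and FBXW7 (−0.17), and each was lost without several single arrays, namely 11 for FBXL17 and 7 each for FBXL4 and FBXW7. The other 8 passed without any 1 array. Without replicate 3 at all 5 times 2 genes, FBXO2 and FBXO15, passed, where 10.9% of all genes did.

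**Figure D4:**
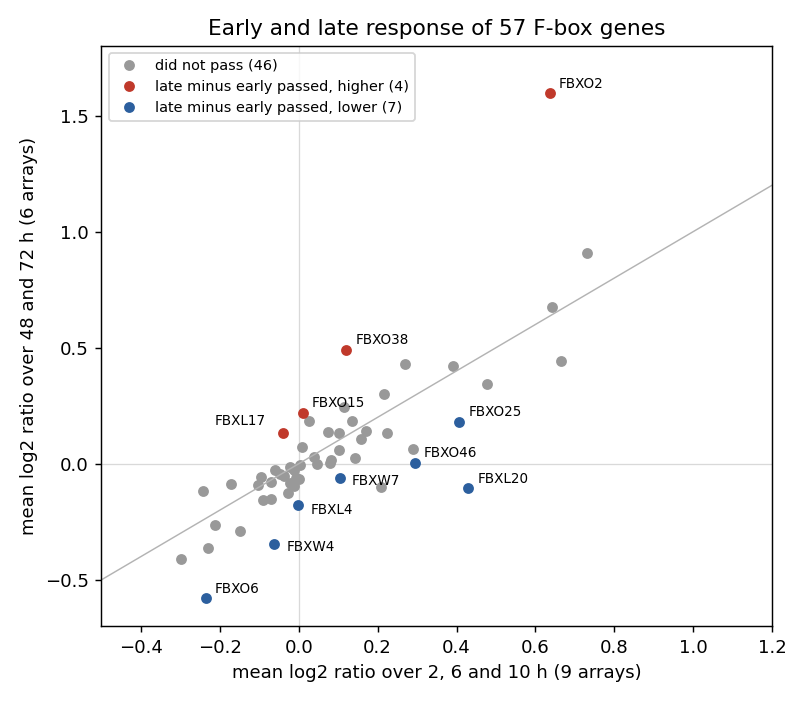
Mean log2 ratio over the 9 arrays of 2, 6 and 10 h (horizontal axis) and over the 6 arrays of 48 and 72 h (vertical axis) for the 57 F-box genes; the diagonal marks equal early and late ratios, and coloured points passed the late minus early test. FBXO2 lies far above the diagonal at 0.64 and 1.60, and FBXL20 lies below it at 0.43 and −0.11.

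F-box proteins under other symbols were counted apart. At 72 h 3 of 9 fell and 1 rose (44.4% against 35.8% of all genes), with a median of −0.03. SKP2, the receptor that degrades the cell cycle inhibitor p27, fell by 0.82 ± 0.10 at 72 h (adjusted p = 4.26e-05, limma). The cyclin F gene CCNF fell by 0.33 and the histone demethylase gene KDM2B by 0.28 at 72 h, and LMO7 rose by 0.14. Without 72 h replicate 3 the list had 1 gene lower and no gene higher.

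Of 23 measured genes for SCF subunits and for loading NEDD8, the small modifier that activates cullins, 3 rose and 7 fell at 48 h (43.5% against 37.9% of all genes), with a median of −0.09. At 72 h 3 rose and 5 fell (34.8% against 35.8%), with a median of −0.11. DCUN1D3, a regulator of cullin neddylation, rose by 0.69 ± 0.08 at 48 h, NAE1, a subunit of the NEDD8-activating enzyme, fell by 0.50 ± 0.06 at 72 h, and GLMN, an inhibitor of RBX1, fell by 0.42 ± 0.07 at 72 h. NEDD8 rose by 0.27 ± 0.04 at 72 h. The numbers that fell were 3 without 48 h replicate 1 and 2 without 72 h replicate 3. A list of 11 genes joined the COP9 signalosome, which takes NEDD8 off cullins, with the separate NEDD8 protease gene SENP8. At 48 h 1 of the 11 rose and 2 fell (27.3% against 37.9%, with a median of 0.01). COPS4 rose by 0.26, while COPS3 fell by 0.18 and the NEDD8 protease gene SENP8 by 0.24, and no gene of the list fell without 48 h replicate 1 or 3.

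Genes of proteins reported as SCF substrates were counted too, since SCF ligases act on the protein and the arrays read RNA. At 48 h 11 of 41 rose and 10 fell (51.2% against 37.9% of all genes), with a median of −0.07. At 72 h 14 rose and 12 fell (63.4% against 35.8%; median 0.02), but 7 rose and 6 fell without 72 h replicate 3, and 9 rose without 72 h replicate 1. At 48 h CDKN1A, the p21 inhibitor of cyclin-dependent kinases, rose by 1.53 ± 0.11 and the cyclin D1 gene CCND1 by 0.54 ± 0.06, while NFKB1 fell by 0.66 ± 0.08 and the clock gene PER2 by 0.69 ± 0.08. Substrate receptors of other cullins were the list most like the F-box genes in role. Of 73, the shares that passed were 17.8%, 38.4%, 32.9%, 47.9% and 28.8% at the 5 times, beside 17.5%, 33.3%, 31.6%, 38.6% and 42.1% of the 57 F-box genes, so the receptors had the higher share at 48 h and the lower at 72 h. At 48 h 21 rose and 14 fell (8 fell without 48 h replicate 2 or 3), and at 72 h 12 rose and 9 fell (median 0.02). At 72 h KLHL25 rose by 1.98 ± 0.15 and KCTD10 by 0.55 ± 0.05, and DCAF17 fell by 0.35 and LRR1 by 0.45. The difference between the 2 lists was not tested.

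Some lineage markers also passed, erythroid ones from 2 h on. Of 15 erythroid markers 2 fell at 2 h, 5 at 6 h, 6 at 10 h, 5 at 48 h and 2 at 72 h, while 0, 0, 1, 3 and 4 rose. Their shares of 13.3%, 33.3%, 46.7%, 53.3% and 40.0% stood beside 6.35%, 28.7%, 29.7%, 37.9% and 35.8% of all genes. At 72 h RHAG rose by 0.62, TFRC by 0.62, EPOR by 0.54 and NFE2 by 0.47, and the embryonic globin gene HBZ fell by 0.90 and the erythroid factor gene KLF1 by 0.50 (median 0.00). The number that fell was 1 at 2 h without 2 h replicate 1 or 3 and 3 at 10 h without 10 h replicate 3. The number that rose was 1 at 48 h without 48 h replicate 3, and at 10 h it was 0 without 2 h replicate 3 or 10 h replicate 2 and 2 without 72 h replicate 2. Of 9 megakaryocyte markers 4 rose and 0 fell at 72 h (44.4% against 35.8% of all genes), led by CD9 at 1.30, and their median was 0.10. At 2, 6, 10 and 48 h 0%, 11.1%, 11.1% and 33.3% of them passed, below the share of all genes each time. Of 12 granulocyte and monocyte markers 3 rose and 0 fell (25%, below the share of all genes), led by LYZ at 1.76 and ITGAM at 0.82; 1 fell without 6 h replicate 1 or 72 h replicate 1. The median of these 12 at 72 h was 0.02. At 2, 6, 10 and 48 h 0%, 8.33%, 8.33% and 33.3% of them passed, also below all genes, with 1 lower at 48 h. Summed marker levels and markers at 0 cannot be read from ratios. The part of lineage changes in the F-box ratios was not tested.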

How the data were processed

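Each array hybridised RNA of valproic acid treated and untreated K562 cells. The deposited values are the authors' log ratios per probe, taken as log2, with treated over untreated in every array, per the labels. Per the submitters' processing notes limma was used; background correction and normalization are not given in the sources used here. Of 45220 probes, 31332 carried 1 gene symbol in the platform annotation, 93 carried several and 13795 none. After 31291 were matched to reference gene names, probes were averaged to 18334 genes.

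In R 4.3.3 with limma 3.58.1, 1 model over the 15 arrays had a term for each time and 1 for dye orientation (9 residual and 3.47 prior degrees of freedom); lmFit and eBayes tested each time, late minus early, and all times (F test), with Benjamini-Hochberg adjustment over all genes at 0.05. The procedure was tested on simulated data. Depth does not apply to arrays, and their number is among the limits on the precision.

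Arrays with the same replicate number come from the same thawing, per the labels. Their deviations correlated by 0.183, 0.153 and 0.525 on average for replicates 1, 2 and 3, and by −0.0573, −0.0526 and −0.243 once the dye term was fitted; the lowest pairs without it were at −0.108, −0.0318 and 0.38. Before the dye term, the 2 h array of replicate 3 correlated at 0.535 over genes with the mean of the other 2 h arrays, but at −0.0895 over all probes.

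The genes and lists were chosen with earlier results of these data known. Named were FBXL16, the 4 highest and 4 lowest called genes of each comparison with 1 sign on all 3 arrays, the genes of the functional F-box lists, up to 4 genes by adjusted p of the other lists, and the 6 genes nearest to FBXL16. FBXO9 and FBXO43 were not analysed here. Probes of pseudogenes and close paralogs may share RNA. Alternatives were no dye term, replicate blocks, probe medians, scaled arrays, array weights, deposited symbols and each array or thawing left out.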

Additional observations from a re-analysis of the deposited data

Results flagged for a closer look

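The ratio of 11 F-box genes differed between the late times (48 and 72 h) and the early times (2, 6 and 10 h) by limma's test of the difference itself, and that of 10 genes differed between the 5 times by the F test. The late minus early differences of named genes that brought them here were 0.96 for FBXO2, 0.37 for FBXO38, 0.21 for FBXO15 and 0.17 for FBXL17. The late ratio was the lower one for FBXL20 (−0.54), FBXO6 (−0.34), FBXO46 (−0.29) and FBXW4 (−0.28). The count of late minus early differences was 2 without replicate 3 at all times, where 10.9% of all genes passed instead of 25.9%. The part of dye or thawing in this count was not tested. Groups of 3 arrays are too small for a search for outlying arrays.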

How the results depend on the processing

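The 104 called values of the 57 F-box genes were recomputed under 25 alternatives each. Of the 2600 comparisons, 2261 kept sign and call, 339 kept the sign and lost the call, and 0 changed sign. Without the dye term 3 genes passed at 2 h instead of 10, 6 for late minus early instead of 11, and 6 by the F test instead of 10. All genes then passed in 4.59%, 19.3% and 15.5% of cases, instead of 6.35%, 25.9% and 23.3%. With 3 of 57, the F-box genes thus stood near all genes at 2 h without the dye term. With arrays scaled to a common spread 17 passed at 2 h, and with array weights also 17, where 19.0% and 17.7% of all genes did. Leaving out arrays gave 0 to 12 genes at 2 h, 13 to 21 at 6 h, 8 to 20 at 10 h, 15 to 23 at 48 h and 13 to 25 at 72 h. It gave 2 to 13 for late minus early and 1 to 14 by the F test. The F test passed for 4 genes without replicate 1 or without replicate 2 at all times, where 17.1% and 13% of all genes passed. The lowest values came without 2 h replicate 3 (0 genes), 6 h replicate 2, 10 h replicate 1, 48 h replicate 3, 72 h replicate 3, and replicate 3 at all times (2 and 1 genes). In these settings the shares of all genes dropped too, to 2.17%, 19.9%, 21.1%, 27.9% and 23% at the 5 times. They were 10.9% for late minus early and 5.02% by the F test. With a fixed replicate block 10, 19, 17, 20 and 23 genes passed at the 5 times, 11 for late minus early and 10 by the F test. All genes then passed in 6.65%, 28.5%, 29.5%, 37.5% and 36% of cases at the 5 times. Their shares were 25.8% for late minus early and 23.3% by the F test. The pairing by thawing ended the calls of FBXO33 at 48 h (adjusted p = 0.0514), FBXO7 at 72 h (0.0530) and FBXO17 at 10 h (0.0566) among named genes. Kept under every alternative were 0 of 10 calls at 2 h, 9 of 19 at 6 h, 5 of 18 at 10 h, 12 of 22 at 48 h, 8 of 24 at 72 h and 2 of 11 for late minus early. The cause of these changes was not tested. The 3 arrays per time and unknown background correction limit small ratios most.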
